A study of Mus musculus with 8 samples.

Results

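The genes described here are the members of the transforming growth factor-beta (TGF-beta), bone morphogenetic protein (BMP) and activin signaling family measured in nuclei of the mouse iris. They were chosen by gene name, as the ligands, receptors, Smads, latent TGF-beta binding proteins and secreted antagonists whose symbols begin with Bmp, Bmpr, Tgfb, Tgfbr, Gdf, Inha or Inhb, Acvr, Smad or Ltbp, together with a set of named antagonists that includes Grem1, Fst, Fstl1, Fstl3, Nog, Chrd, Chrdl1 and Bambi. The family was picked with earlier results of these data known. By this rule 56 of 22873 genes were taken, and all 56 enter the counts below. Single-nucleus RNA sequencing was carried out on irises of female albino mice aged 6 to 8 weeks, with 5 to 6 irises pooled for each of 8 libraries. Irises were left untreated (3 libraries), were constricted with 5% pilocarpine drops in the light (3 libraries), or were dilated with 5% phenylephrine plus 1% cyclopentolate drops in the dark (2 libraries), with drops given every hour for 6.5 h. Drug and lighting differed together between the treatments and cannot be told apart, and because irises were pooled no value belongs to a single animal.

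In this family a dimeric ligand brings together type 1 and type 2 receptor kinases, which phosphorylate receptor-regulated Smads, and these enter the nucleus with the common Smad, Smad4. TGF-beta and activin ligands act mainly through Smad2 and Smad3, BMP ligands through Smad1, Smad5 and Smad9, and Smad6 and Smad7 inhibit the pathway. Outside the cell, gremlins, noggin, chordins and follistatins bind ligands and hold them from their receptors, and TGF-beta itself is secreted in a latent form tethered to latent TGF-beta binding proteins. TGF-beta2 is a well known component of the aqueous humor.

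By role, the 56 genes comprise 14 BMP or GDF ligands, 3 TGF-beta ligands, 4 activin and inhibin subunits, 7 type 1 receptors, 4 type 2 receptors, 2 co-receptors or pseudoreceptors (Tgfbr3 and Bambi), 5 receptor-regulated Smads, 1 common Smad, 2 inhibitory Smads, 4 latent TGF-beta binding proteins, and 8 secreted antagonists or binding proteins. The other 2, Bmp1 (a procollagen protease) and Bmp2k (a protein kinase), were matched by name and are not ligands of the family. Each gene was measured as unique molecular identifiers (UMIs), 1 for each captured RNA molecule, in 34357 nuclei that the authors had assigned to 10 cell types. The 56 genes held 374328 UMIs, 0.342% of all UMIs, from 10 for Gdf6 to 49356 for Tgfbr3, with a median of 2194.

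Libraries held 1274 to 7321 nuclei and 5189437 to 25136427 UMIs, with medians of 2775 to 4697.5 UMIs per nucleus. The library numbers fall into adjacent runs of 2 to 4 (untreated 1, constricted 1, dilated 1), 13 (constricted 2) and 15 to 18 (untreated 2 and 3, constricted 3, dilated 2), and the run of each library on the sequencer was not given in the sources used here. A total of 400 nuclei (1.16%) carried a barcode that another library also held, and untreated 1 and dilated 1 shared 63 barcodes (4.26% of the nuclei of untreated 1), of which 59 had the same cell type in both. Without these nuclei the numbers of calls reported below were identical. The 5 dilator muscle markers examined summed to 4960 to 5893 UMIs scaled to the library's total (CPM) in untreated dilator nuclei and to 212 to 263 in untreated stroma 2 nuclei. They summed to 4489 to 5587 CPM in untreated sphincter 2 and to 3111 to 3516 CPM in untreated sphincter 1. The list therefore does not set dilator muscle apart from sphincter 2. The 5 markers examined for the cell type the authors name ciliary body (CB) summed to at most 118 CPM in those nuclei, so CB is used here only as the authors' name, for a cluster in which the 6 iris pigment epithelium markers summed to 5769 to 12713 CPM, the 6 ciliary body epithelium markers to 5640 to 7585 CPM and the 8 stroma 1 markers to 4989 to 11667 CPM. The iris pigment epithelium list was highest not in that epithelium but in stroma 1, at 26237 to 33314 CPM.

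Promoter sequences are shown for Grem1, Ltbp1, Bmp2k and Tgfb1, the genes called higher in dilator muscle of dilated irises against both other groups under every setting tried (values below) that were also among the 39 family genes used from the RefSeq promoter table (GRCm38.p6). Each is the 250 bases before the annotated start (for Ltbp1, the first of 2 starts), and capitals mark GGCGCC, a GC-rich word that BMP Smads can bind, or TGACGTCA, the palindromic cAMP response element.
Grem1, chr2:113758649-113758898, minus strand: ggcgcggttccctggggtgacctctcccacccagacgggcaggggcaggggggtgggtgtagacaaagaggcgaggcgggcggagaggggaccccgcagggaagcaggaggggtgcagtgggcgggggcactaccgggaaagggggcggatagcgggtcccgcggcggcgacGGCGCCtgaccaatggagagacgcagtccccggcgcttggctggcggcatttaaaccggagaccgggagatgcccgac
Ltbp1, chr17:75005279-75005528, plus strand: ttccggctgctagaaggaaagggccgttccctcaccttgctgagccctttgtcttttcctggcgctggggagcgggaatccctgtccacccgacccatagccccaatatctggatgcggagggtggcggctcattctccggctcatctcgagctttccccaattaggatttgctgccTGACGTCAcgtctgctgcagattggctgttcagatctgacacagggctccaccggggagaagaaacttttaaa
Bmp2k, chr5:96997439-96997688, plus strand: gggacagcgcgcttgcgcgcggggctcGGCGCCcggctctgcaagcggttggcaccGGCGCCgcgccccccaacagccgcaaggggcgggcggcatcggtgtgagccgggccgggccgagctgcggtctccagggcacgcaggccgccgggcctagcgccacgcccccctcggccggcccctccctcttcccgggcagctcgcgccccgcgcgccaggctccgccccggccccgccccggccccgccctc
Tgfb1, chr7:25686752-25687001, plus strand: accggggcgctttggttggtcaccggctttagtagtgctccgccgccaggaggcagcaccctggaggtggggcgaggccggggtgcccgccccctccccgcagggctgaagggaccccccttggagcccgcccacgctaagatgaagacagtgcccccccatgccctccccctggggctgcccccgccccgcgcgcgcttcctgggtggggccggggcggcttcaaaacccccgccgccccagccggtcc
GGCGCC, which is its own reverse complement, begins at -78 in Grem1, counted from the start, and occurs at 2 places in Bmp2k. Tgfb1 held none of the words searched. GGCGCC was present in 9.59% of 32851 promoters of the table, in 9 of the 39 family genes and in 3 of the 8 dilator-called family genes that the table holds (Bmp2k, Chrd and Grem1). TGACGTCA, also its own reverse complement, begins at -73 in Ltbp1 and was present in 1.55% of the promoters and in 1 of the 39 family genes. The AP-1 word TGANTCA, searched on both strands, was present in 6.75% of the promoters and in 0 of the 39. Fst, Bmp2 and Bmp7 were not in the table.

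To see which cells of the resting iris transcribe the family, levels were taken as CPM over all nuclei of a cell type in each of the 3 untreated libraries, and are given as mean ± SD (n = 3). Cell types were defined from the same counts, so levels are described without a test, and they are compared only between cell types for 1 gene and never between genes. Of the 55 genes with at least 50 UMIs, 27 were at least 2-fold higher in their highest cell type than in the next, and for 23 of these the 3 libraries of both cell types did not overlap. The same shares over all genes were not computed, so these counts are not read as a trait of the family. Untreated 1 held only 13 leukocyte and 20 endothelial nuclei. None of the 55 had its highest level in dilator muscle. Of the 26 described here, endothelial cells and stroma 2 held 5 each, leukocytes 4, iris pigment epithelium (PE), CB and ciliary body epithelium (CBE) 3 each, sphincter 2 held 2 and stroma 1 held 1.

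**Figure D1:**
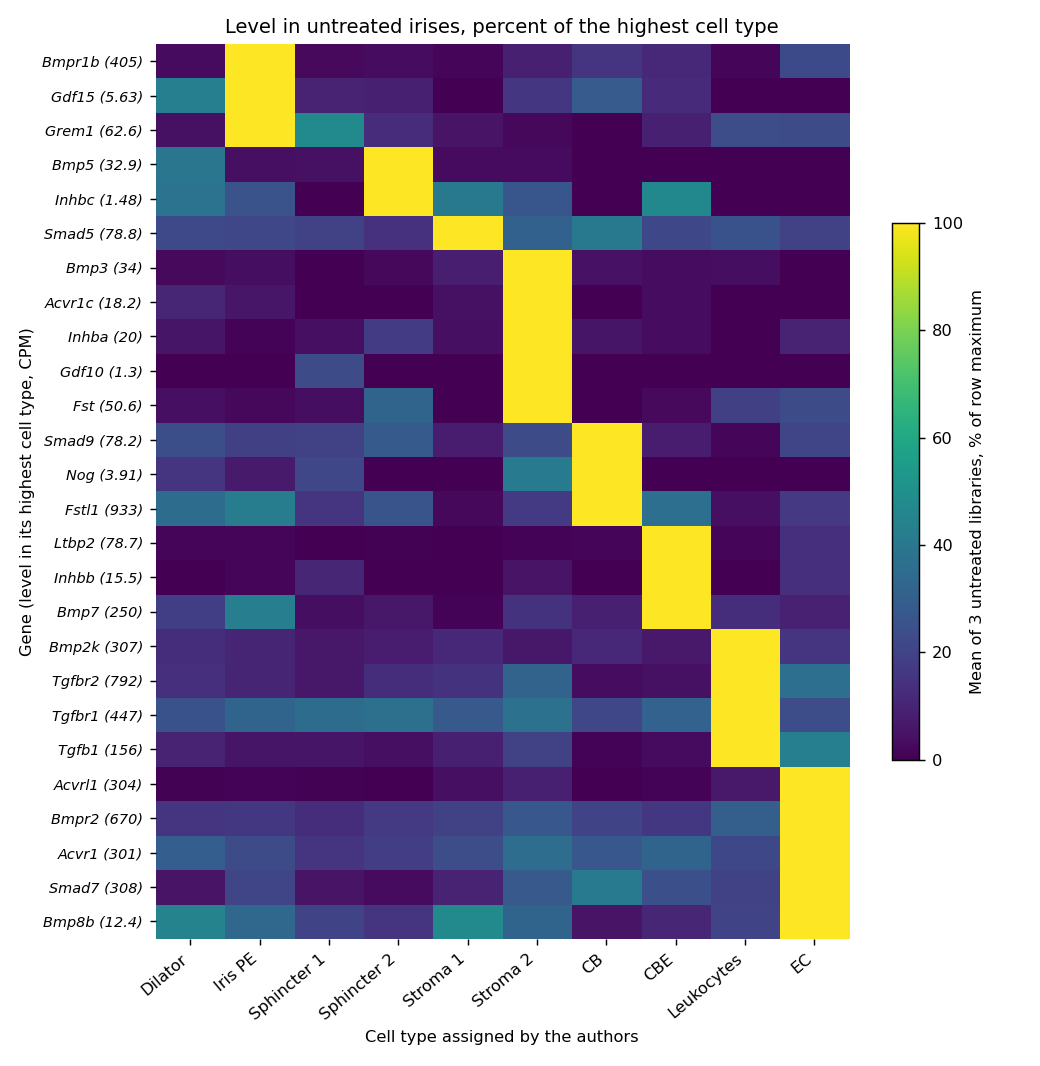
Level of all but 1 of the 27 family genes that were at least 2-fold higher in 1 cell type than in the next, in untreated irises. Rows are genes, with the mean CPM in the highest cell type in brackets, columns are the 10 assigned cell types, and color gives the mean of the 3 untreated libraries as a percent of the row's highest cell type; dilator muscle (first column) is the brightest cell in no row.

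Among the ligands, Tgfb2, the TGF-beta of the aqueous humor, was highest in iris PE, at 705 ± 97.4 CPM, and next in dilator muscle, at 539.7 ± 36.3 CPM. Tgfb1, the TGF-beta of immune and endothelial cells, was at 156 ± 31.5 CPM in leukocytes and 67.6 ± 46.8 CPM in endothelial cells. The epithelia held the most of 2 BMPs that are known from eye development. Bmp4 was at 471 ± 181 CPM in CBE and 383 ± 34.0 CPM in iris PE, which overlapped between libraries, whereas Bmp7, at 250.1 ± 21.8 CPM in CBE against 107 ± 14.4 CPM in iris PE, did not. Stroma 2 held the most Bmp3, at 34.0 ± 2.28 CPM against 2.90 ± 2.16 CPM in stroma 1, and the most Inhba, the activin A subunit, at 20.0 ± 4.66 CPM against 3.55 ± 4.92 CPM in sphincter 2. Bmp5 was highest in sphincter 2, at 32.9 ± 12.9 CPM, with dilator muscle next at 12.9 ± 2.88 CPM. Inhbb, the activin B subunit, was at 15.5 ± 4.24 CPM in CBE, from 21 UMIs. Bmp8b, Gdf10, Gdf15 and Inhbc also passed the 2-fold mark, but from only 4, 10, 54 and 3 UMIs in their highest cell type.

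The receptor genes also differed in level between cell types. Bmpr1b, a BMP type 1 receptor, reached 405 ± 35.3 CPM in iris PE against 91.1 ± 52.7 CPM in endothelial cells, and at 11.7 ± 1.11 CPM in dilator muscle. Endothelial cells held the most Acvrl1, the endothelial type 1 receptor ALK1, at 304 ± 16.7 CPM against 26.6 ± 4.2 CPM in stroma 2. They also held the most Bmpr2, the BMP type 2 receptor, at 669.6 ± 159.7 CPM against 202 ± 13.8 CPM in leukocytes, and the most Acvr1, at 301 ± 41.9 CPM against 107 ± 4.53 CPM in stroma 2. Leukocytes held the most of both TGF-beta receptor kinases. Tgfbr1 was at 447 ± 138 CPM there and 169 ± 24.7 CPM in stroma 2, and Tgfbr2 was at 792 ± 40.0 CPM there and 288 ± 36.7 CPM in endothelial cells. Acvr1c, which encodes the type 1 receptor ALK7, was at 18.2 ± 7.07 CPM in stroma 2 and 1.94 ± 1.56 CPM in dilator muscle. The co-receptor Tgfbr3 (betaglycan) was higher in iris PE, at 828 ± 41.4 CPM, than in CBE, at 671 ± 70.8 CPM, with no overlap. The BMP receptor Bmpr1a was widespread, at 499.9 ± 46.5 CPM in sphincter 1 and, overlapping it, 440.1 ± 56.6 CPM in sphincter 2, with 281 ± 11.7 CPM for dilator muscle.

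Among the Smads, which carry the signal to the nucleus, Smad5 was highest in stroma 1 (78.8 ± 8.32 CPM, against 32.0 ± 6.93 CPM in CB) and Smad9 in CB (78.2 ± 16.4 CPM, against 22.0 ± 7.92 CPM in sphincter 2). Smad3 was also highest in stroma 1, at 193 ± 4.01 CPM against 153 ± 12.7 CPM in leukocytes, and the common Smad, Smad4, was at 156 ± 32.6 CPM in sphincter 2 against 126 ± 9.02 CPM in sphincter 1, with overlap. The inhibitory Smad7 was at 308 ± 107 CPM in endothelial cells and 126 ± 19.3 CPM in CB. Among the secreted antagonists, Grem1, which blocks BMPs, reached 62.6 ± 23.3 CPM in iris PE against 29.6 ± 12 CPM in sphincter 1, and only 2.92 ± 0.843 CPM for dilator muscle. Fst (follistatin, an activin antagonist) was at 50.6 ± 18.7 CPM in stroma 2 and 16.3 ± 8.01 CPM in sphincter 2, and Fstl1, a secreted follistatin-like glycoprotein, was at 933 ± 97.9 CPM in CB and 395 ± 38.9 CPM in iris PE. Nog, encoding noggin, was seen too rarely to place (5 UMIs in CB). Of the latent TGF-beta binding proteins, 3 were highest in CBE. These were Ltbp1 at 500.6 ± 16.4 CPM against 313 ± 12.1 CPM in sphincter 1, Ltbp2 at 78.7 ± 36.7 CPM against 10.7 ± 9.85 CPM in endothelial cells, and Ltbp3 at 116 ± 7.81 CPM against 74.3 ± 7.03 CPM in iris PE. Bmp2k was highest in leukocytes, at 307 ± 125 CPM against 45.8 ± 27.9 CPM in endothelial cells.

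To see what dilation and constriction changed, the UMIs of each cell type were added up within a library and compared between conditions with edgeR's quasi-likelihood test (two-sided), with libraries as the replicates. Values below are normalized CPM, that is CPM after edgeR's TMM scaling of the libraries within a cell type, and a gene was called if its log2 fold change passed 0.6 in either direction with a Benjamini-Hochberg adjusted p under 0.05 over all genes tested in that cell type. Of the 56 genes 51 passed the filter on low counts in at least 1 cell type (46 in dilator muscle, 44 in stroma 2, 42 in iris PE and 9 to 28 in the others). Bmp15, Gdf6, Inhbb, Inhbc and Nog, with 10 to 85 UMIs each, passed in none. Over the 10 cell types, 12 of 275 tests of family genes were called for dilated against untreated irises, where 3.34% of all tests were called. For dilated against constricted irises 14 of 275 were called (2.65% of all tests), and for constricted against untreated irises 0 of 275 (0.0118% of all tests). Both comparisons with dilated irises use the same 2 dilated libraries. With the adjacent library number runs as a block in the fit, 28 were called against untreated and 17 against constricted irises, and in dilator muscle Smad7, Tgfb3, Fstl3, Chrdl1 and Bmpr1b, not called below against untreated irises, were among those gained. The share of all tests called with that block is not given here, so the larger counts are not read as particular to the family.

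Of the 12 calls for dilated against untreated irises, 11 lay in dilator muscle, the cell layer that contracts to open the pupil and the cell type with the most nuclei (11606). Of the 46 family genes tested there, 11 were called, where 13.3% of all genes tested were called. Higher were 8 (7.2% of all genes): the antagonists Grem1, Fst, Chrd and Fstl1, the ligands Bmp2 and Tgfb1, the TGF-beta binding protein Ltbp1, and Bmp2k. Lower were 3 (6.14% of all genes): the ligands Bmp4 and Bmp7 and the inhibitory Smad6. The median log2 fold change of the 46 was 0.03, beside 0.02 for all genes tested in dilator muscle. Of the receptors 0 of 12 tested were called, and of the receptor-regulated and common Smads 0 of 6. Of the calls over all genes, 54.0% were higher under TMM and 32.4% with library totals as the scale, which moved the median of all genes to -0.16.

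**Figure D2:**
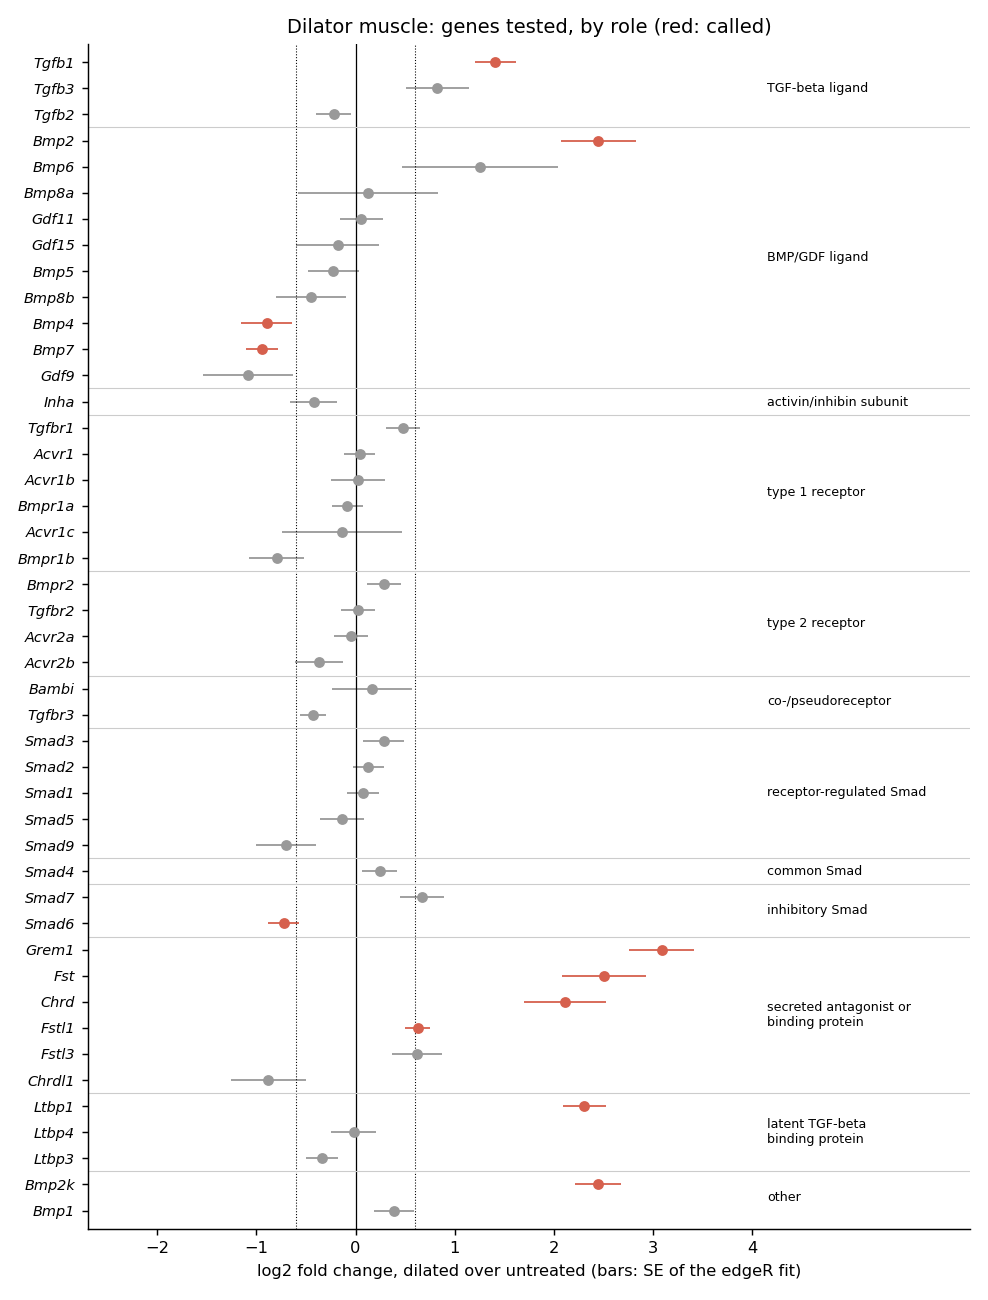
Change of all but 1 of the 46 family genes tested in dilator muscle, dilated over untreated irises, grouped by role. Points are log2 fold changes, bars the SE of the edgeR fit, dotted lines mark 0.6 in either direction and red marks the 11 called genes; red points stand among ligands, antagonists, Ltbp1, Smad6 and Bmp2k, and every receptor is gray.

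Of the antagonists, Grem1 (chromosome 2, 113746164-113758646, mm10), which binds BMP2, BMP4 and BMP7, was at 3.40, 2.95 and 2.02 normalized CPM in the untreated libraries, 2.56, 1.75 and 3.31 in the constricted ones and 18.0 and 27.8 in the dilated ones. The groups did not overlap, and the rise was 8.49-fold over untreated irises (log2 fold change 3.09, SE 0.33, adjusted p = 9.83e-05) and 8.51-fold over constricted irises (adjusted p = 0.000136). A UMI of Grem1 was seen in 0.826% of untreated and 4.75% of dilated dilator nuclei. In dilated irises it was seen in 0.633% of stroma 2 and 0.157% of CB nuclei and in 10.5% of iris PE nuclei. Thinned to 1000 UMIs per nucleus these shares were 0.255%, 1.57%, 0.256%, 0.0292% and 4.11%. The 6 iris PE markers examined, all detected, summed to 8306 to 8809 CPM in untreated, 7630 to 9103 CPM in constricted and 10062 to 10519 CPM in dilated dilator nuclei. In untreated dilator nuclei Dct was at a mean of 5220 CPM, Pax6 1506, Pmel 914, Tyrp1 806, Otx1 66.9 and Zic1 13.9. In untreated iris PE they were at 7060, 1691, 563, 1233, 147 and 764 CPM, in that order. The part of iris PE RNA in the Grem1 change was not tested. In iris PE itself Grem1 was at 85.2, 50.2 and 48.4 normalized CPM in untreated and 55.6 and 45.5 in dilated libraries (log2 fold change -0.21, SE 0.29), and the dilation effect differed between the cell types (difference 3.07, SE 0.30, adjusted p = 1.51e-07).

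Chrd (chordin), which also binds BMPs, was at 1.13, 1.69 and 2.64 normalized CPM in untreated, 2.56, 0.874 and 2.60 in constricted, and 7.67 and 9.82 in dilated dilator nuclei, from 31 UMIs in all untreated and 117 in both dilated libraries. The groups did not overlap (log2 fold change over untreated 2.11, SE 0.41, adjusted p = 0.00475; over constricted 1.98, SE 0.42, adjusted p = 0.00878, and 0.0678 without dilated 2). A UMI of Chrd was seen in 0.689% of untreated and 2.89% of dilated dilator nuclei, and in dilated irises in 2.34% of stroma 2, 0.206% of stroma 1 and 0.157% of CB nuclei. Fstl1, with 37858 UMIs over all libraries, was at 299, 324 and 326 normalized CPM in untreated, 381, 394 and 383 in constricted, and 511 and 465 in dilated dilator nuclei, so that the constricted libraries lay between the others without overlap. Its 1.54-fold rise over untreated irises was called (log2 fold change 0.63, SE 0.13, adjusted p = 0.00586), but lay near the threshold of 0.6 and was not called without untreated 1 or dilated 1, and its 1.27-fold difference from constricted irises was not called (adjusted p = 0.111). Fstl3 and Chrdl1 were also tested there and were not called.

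Fst was 5.68-fold higher in dilated than untreated dilator nuclei (log2 fold change 2.51, SE 0.42, adjusted p = 0.0018), from 27 UMIs in untreated and 136 in dilated libraries. It was at 2.26, 1.55 and 1.86 normalized CPM in untreated, 2.93, 0.874 and 3.31 in constricted, and 8.49 and 12.4 in dilated libraries, and was also called over constricted irises (adjusted p = 0.007, and 0.0699 without dilated 2). In dilated irises a UMI of Fst was seen in 3.0% (exact 95% binomial interval 2.48% to 3.58%) of dilator nuclei, 2.83% (1.69% to 4.44%) of CB, 2.19% of iris PE and 1.86% of stroma 1 nuclei, against 36.7% of stroma 2 nuclei. Median UMIs per nucleus were 3026 to 5299 in dilator muscle and 2647 to 5205.5 in CB, depending on the library, and at 1000 UMIs per nucleus the dilator and CB shares were 0.903% and 0.951%. CB and stroma 1 had no Fst UMI in any untreated or constricted library. The share in dilated dilator nuclei lay within the interval of the CB share, which covers counting error over nuclei only. Whether dilator muscle itself transcribes Fst was not tested, nor was the part of free RNA in the call.

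**Figure D3:**
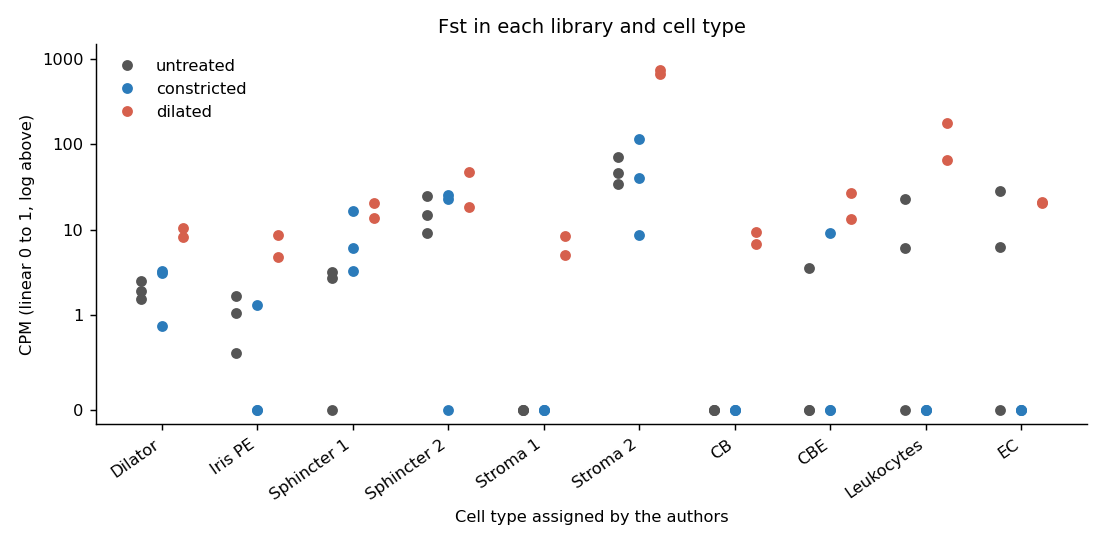
Fst in each library and cell type. The vertical axis is CPM (linear from 0 to 1, logarithmic above) and each point is 1 library, colored by condition; in dilated irises (red) stroma 2 stands far above the other cell types, while dilator, iris PE, stroma 1 and CB lie close together near 5 to 12 CPM.

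In stroma 2, the cell type with the highest resting level of Fst, the gene rose. Stroma 2 nuclei held 67.8, 46.4 and 34.9 normalized CPM of Fst in the untreated libraries, 113, 8.72 and 41.1 in the constricted ones and 659 and 788 in the dilated ones. The rise was 15.2-fold over untreated irises (log2 fold change 3.93, SE 0.55, adjusted p = 0.00542, and 0.0537 without untreated 3) and 12.5-fold over constricted irises (log2 fold change 3.65, SE 0.54, adjusted p = 0.0115). The share of stroma 2 nuclei with an Fst UMI went from 6.48% to 36.7%, or from 3.47% to 26.7% at 1000 UMIs per nucleus. Fst was the sole family gene called among the 44 tested in stroma 2, in both comparisons with dilated irises, where 1.73% of all genes were called against untreated and 0.532% against constricted irises. In the same nuclei 7 endothelial markers summed to 205 to 307 CPM in untreated, 158 to 345 CPM in constricted and 652 to 820 CPM in dilated libraries. Among them Cldn5 was at 99.1 to 132 CPM in untreated and at 373 and 631 CPM in dilated libraries. Flt1 was at 43.6 to 104 and at 172 and 126 CPM, and Erg at 4.25 to 7.51 and at 58.5 and 23.4 CPM. Pecam1 was at 14.4 to 45.9 and at 26.7 and 30.4 CPM, and Tek at 5.63 to 48.3 and at 17.5 and 8.18 CPM. Cdh5 and Kdr were at most 1.62 and 3.23 CPM in any library. The part of endothelial RNA in the Fst result was not tested.

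Among the ligands in dilator muscle, Bmp2 and Tgfb1 rose and Bmp4 and Bmp7 fell. Bmp2 was at 20.9, 8.29 and 6.05 normalized CPM in untreated, 11.4, 10.5 and 15.1 in constricted, and 42.1 and 68.0 in dilated dilator nuclei. The dilated libraries lay above all others (log2 fold change over untreated 2.45, SE 0.38, adjusted p = 0.00101; over constricted 2.13, SE 0.36, adjusted p = 0.00239). The ratio to untreated irises was 1.01 on the log2 scale within the library run 2 to 4 and 3.24 within the run 15 to 18, with untreated 1 high. The share of dilator nuclei with a Bmp2 UMI was 2.89% in untreated and 14.6% in dilated irises, beside 0.542% and 1.44% in stroma 1, 0.888% and 3.70% in stroma 2, and 16.5% and 18.3% in CB, and the part of free RNA was not tested. In stroma 2 Bmp2 was not called (log2 fold change 1.83, SE 0.44, adjusted p = 0.0592), and the effect in dilator muscle was not shown to differ from it (difference 0.62, SE 0.50, adjusted p = 0.554). Bmp2 was called higher in stroma 2 without the filter on low counts, with the library number runs as a block and without nuclei called doublets. Leaving out constricted 1 or constricted 3 also gave that call. Tgfb1 was at 17.5, 11.5 and 15.8 normalized CPM in untreated, 15.6, 12.2 and 14.2 in constricted, and 39.3 and 37.9 in dilated nuclei, without overlap, 2.66-fold over untreated (log2 fold change 1.41, SE 0.20, adjusted p = 0.000718) and 2.72-fold over constricted irises (adjusted p = 0.000755). Its log2 fold change over untreated was 0.91 in iris PE and 1.06 in stroma 1, neither called. The Tgfb1 effect in dilator muscle was not shown to differ from that in iris PE (difference 0.52, SE 0.27, adjusted p = 0.244) or stroma 1 (difference 0.46, SE 0.38, adjusted p = 0.6).

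Bmp7 was at 43.6, 45.3 and 44.4 normalized CPM in untreated, 44.0, 48.5 and 43.4 in constricted, and 25.3 and 20.6 in dilated dilator nuclei, 1.92-fold lower than untreated (log2 fold change -0.94, SE 0.16, adjusted p = 0.00222) and 1.95-fold lower than constricted irises (adjusted p = 0.00228). Bmp4 was at 109, 155 and 181 normalized CPM in untreated, 145, 150.3 and 254 in constricted, and 75.1 and 86.2 in dilated nuclei. Its untreated libraries were spread, and the 1.86-fold decrease from them (log2 fold change -0.90, SE 0.26, adjusted p = 0.0359) was not called without dilated 1, dilated 2, untreated 2 or untreated 3, with adjusted p up to 0.162. The 2.28-fold decrease from constricted irises (log2 fold change -1.19, SE 0.26, adjusted p = 0.0109) was not called without dilated 1. Bmp4 overlaps the antisense gene Gm15222 (4968 UMIs), and whether counting used strand was not stated in the sources used here. Tgfb2 was at 454, 547 and 560.3 normalized CPM in untreated and 371 and 525 in dilated dilator nuclei, which overlapped (log2 fold change -0.22, SE 0.18, adjusted p = 0.463). Tgfb3 was not called (log2 fold change 0.82, SE 0.32, adjusted p = 0.11).

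**Figure D4:**
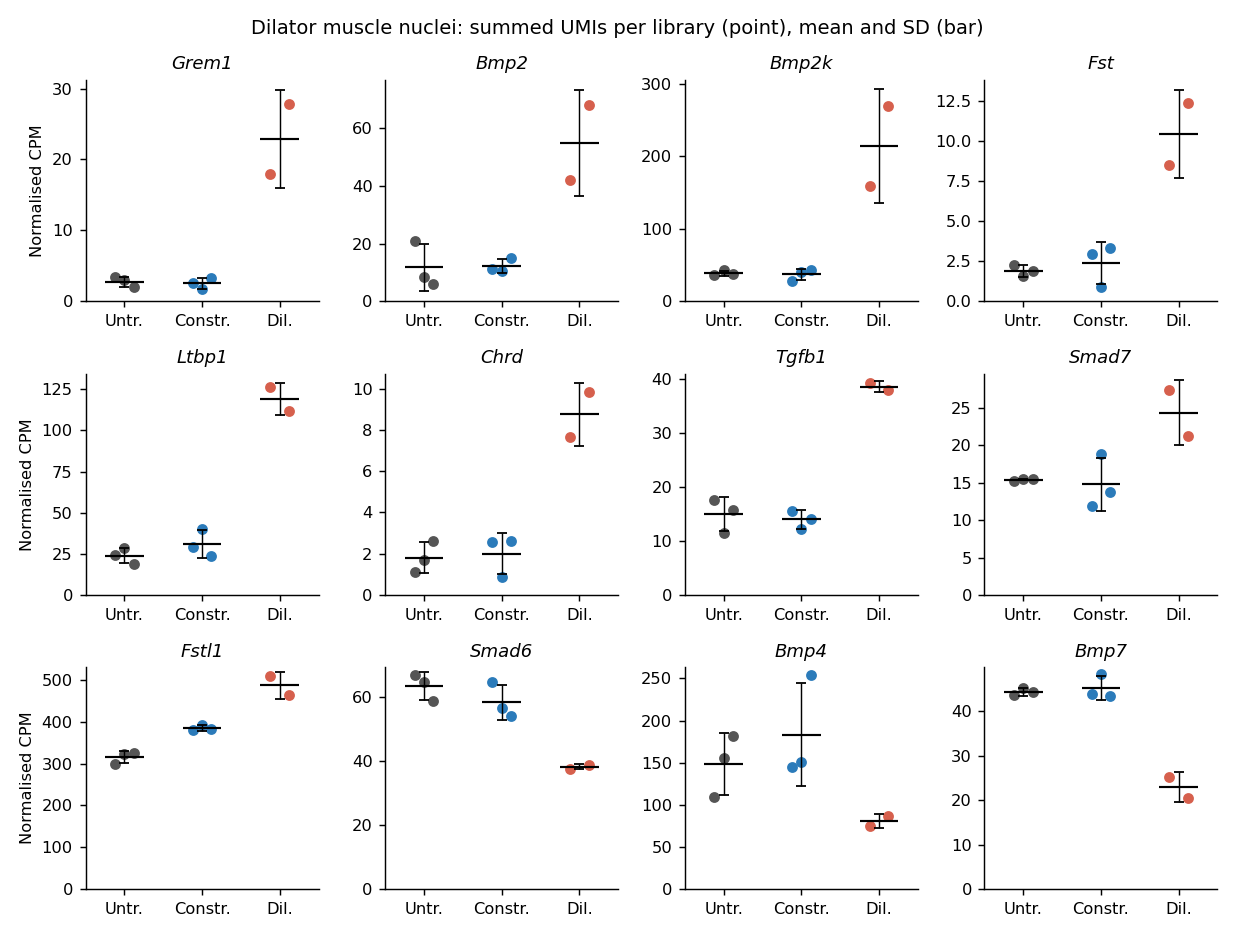
Values of 12 family genes in dilator muscle nuclei. Each point is 1 library (gray untreated, blue constricted, red dilated), the vertical axes are normalized CPM from 0, and lines and bars give the mean and SD; Grem1, Bmp2, Bmp2k, Fst, Ltbp1, Chrd, Tgfb1 and Smad7 stand higher in both dilated libraries than in all others, Smad6, Bmp4 and Bmp7 lower, and Fstl1 shows constricted libraries between the untreated and the dilated ones.

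Ltbp1, which holds latent TGF-beta in the extracellular matrix, and Bmp2k, a kinase of the endocytic machinery, rose without overlap between groups. Ltbp1 was at 24.3, 28.7 and 19.1 normalized CPM in untreated, 29.1, 40.2 and 23.6 in constricted, and 126 and 112 in dilated dilator nuclei, a 4.95-fold rise over untreated (log2 fold change 2.31, SE 0.22, adjusted p = 4.68e-05) and a 3.92-fold rise over constricted irises (adjusted p = 0.000143). Bmp2k was at 35.7, 42.9 and 37.9 normalized CPM in untreated, 27.8, 40.6 and 42.7 in constricted, and 159 and 269.7 in dilated nuclei, 5.45-fold over untreated (log2 fold change 2.45, SE 0.23, adjusted p = 4.67e-05) and 5.82-fold over constricted irises (adjusted p = 4.72e-05). The share of dilator nuclei with a UMI went from 7.30% to 27.4% for Ltbp1 and from 12.8% to 41.8% for Bmp2k, while that of Bmp2k was between 4.54% and 9.28% in untreated and dilated iris PE, stroma 1 and stroma 2. Bmp2k overlaps Paqr3 on the opposite strand (3543 UMIs). The 2 other latent binding proteins tested in dilator muscle were not called, and Ltbp3 was at 37.4, 41.6 and 41.8 normalized CPM in untreated and 31.9 and 32.3 in dilated nuclei (log2 fold change -0.34, SE 0.16, adjusted p = 0.19).

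In dilator muscle the inhibitory Smad6 was lower, and Smad7 higher, in both dilated libraries than in all others. Smad6, the BMP-selective inhibitor, was at 66.8, 64.7 and 58.5 normalized CPM in untreated, 64.5, 56.4 and 53.8 in constricted, and 37.6 and 38.8 in dilated dilator nuclei (log2 fold change from untreated -0.73, SE 0.15, adjusted p = 0.00766, and 0.0583 without dilated 1; from constricted -0.61, SE 0.15, adjusted p = 0.0224, not called without constricted 1, dilated 1 or dilated 2, with adjusted p up to 0.123). The Smad6 log2 fold change over untreated was -0.54 in iris PE, -0.84 in stroma 1 and -0.60 in stroma 2, none called. The effect in dilator muscle was not shown to differ from these (differences -0.17, 0.19 and -0.13, edgeR adjusted p = 0.679, 0.903 and 0.858). It did differ from that in sphincter 1 (difference -1.27, adjusted p = 0.00699). In dilator muscle Smad7 was at 15.3, 15.5 and 15.5 normalized CPM in untreated, 11.9, 18.8 and 13.7 in constricted, and 27.4 and 21.3 in dilated nuclei. It was called against constricted (log2 fold change 0.77, SE 0.22, adjusted p = 0.0433) and not against untreated irises (log2 fold change 0.67, SE 0.22, adjusted p = 0.0603), and the call was lost under 10 of 16 other settings, with adjusted p up to 0.294. The 5 receptor-regulated Smads ran from -0.70 to 0.28 on the log2 scale. Smad3 was at 57.7, 64.0 and 59.6 normalized CPM in untreated and 83.7 and 63.1 in dilated nuclei (log2 fold change 0.28, SE 0.21), and Smad4 was at 60.0, 70.2 and 66.3 against 69.1 and 87.6 (log2 fold change 0.24, SE 0.17).

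Of the receptors in dilator muscle, Bmpr1a was at 249, 273 and 289 normalized CPM in untreated and 229 and 283 in dilated nuclei, which overlapped (log2 fold change -0.08, SE 0.16, adjusted p = 0.79). Tgfbr3 was lower in dilated nuclei, at 285 and 326 against 406, 399 and 427 normalized CPM, below the size threshold (log2 fold change -0.43, SE 0.13, adjusted p = 0.0489). Against constricted irises (465, 437 and 436) it was likewise below the size threshold (log2 fold change -0.54, SE 0.13, adjusted p = 0.0194). With library totals as the scale in place of TMM it was called in both comparisons. For dilated against constricted irises, 11 of the 46 genes were called in dilator muscle, 8 higher and 3 lower, where 10.5% of all genes tested were called (5.59% higher and 4.87% lower). In dilated dilator nuclei the 5 dilator markers summed to 2941 to 3020 CPM, below the 4759 to 5487 CPM of constricted and 4960 to 5893 CPM of untreated libraries. Leukocyte markers (7, all detected) summed to 8.62 to 18.7 CPM and stroma 2 markers (6, all detected) to 42.5 to 101 CPM in dilator nuclei of any library, and neither was higher in dilated libraries than in all others. Stroma 1 markers (8, all detected) were higher there, at 9167 to 9330 CPM in dilated, 8094 to 8497 in untreated and 7044 to 8707 in constricted libraries. The iris PE list, given above with Grem1, was also higher. Both lists hold Dct and Tyrp1. Of the stroma 1 list, Dct, Tyr, Mitf and Tyrp1 were at means of 5220, 1214, 1038 and 806 CPM in untreated dilator nuclei. Sox10, Pax3, Tfap2a and Ednrb were at 3.95, 2.93, 2.30 and 5.61 CPM there. In untreated stroma 1 the 8 were at 20924, 2477, 2178, 2651, 963, 1216, 484 and 894 CPM, in that order. The part of RNA from other cell types was not tested.

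In sphincter 2, Bmp4 and Tgfbr3 were called lower in dilated than in constricted irises, 2 of 23 genes tested where 2.45% of all genes were called. Bmp4 was at 186, 243 and 203 normalized CPM in constricted, 99.5 and 103 in dilated, and 78.5, 143 and 137 in untreated nuclei, so that the constricted libraries were above all others (dilated against constricted, log2 fold change -1.03, SE 0.28, adjusted p = 0.0405). Tgfbr3 was at 416, 507 and 276 normalized CPM in constricted, 225 and 198 in dilated, and 288, 304 and 287 in untreated nuclei (log2 fold change -0.90, SE 0.25, adjusted p = 0.0448). Each call was lost under 8 of 16 other settings, with adjusted p up to 0.233 for Bmp4 and 0.348 for Tgfbr3. In iris PE Bmp4 was at 329, 395 and 412 normalized CPM in untreated and 186 and 228 in dilated nuclei (log2 fold change -0.88, SE 0.22, adjusted p = 0.103), which did not overlap but was not called. It was called lower there without the filter on low counts, with the library number runs as a block and with DESeq2's Wald test. The same held without constricted 3. The Bmp4 effect in dilator muscle was not shown to differ from that in iris PE (difference -0.03, SE 0.12, edgeR adjusted p = 0.925).

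Constriction gave no call for any family gene in any cell type with edgeR as set out above or with the DESeq2 Wald test. At an unadjusted p under 0.05 there were 22 of 275 tests (8%, beside 5.25% of all tests). The lowest adjusted p was 0.167, for Bmp6 in endothelial cells, at 77.2, 52.2 and 61.3 normalized CPM in untreated and 237, 671 and 116 in constricted libraries, from 3 to 27 UMIs per library. In dilator muscle the 46 log2 fold changes of constricted over untreated irises ran from -0.58 to 1.06 with a median of 0.03 and a median SE of 0.21. Under other edgeR settings, Bmp6 and Bmpr1b were called in endothelial cells without the filter on low counts, and Bmp6 without dilated 2.

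To ask whether the dilation effect in dilator muscle differed from that in another cell type, the 2 effects were compared directly in a fit with library as a term, for iris PE, stroma 1, stroma 2, sphincter 1 and sphincter 2 in turn. Over these 5 fits 30 of 221 tests of family genes were called at an adjusted p under 0.05, for 14 genes. Against iris PE 8 of 49 genes differed (12.2% of all genes), against stroma 1 3 of 42 (5.75%), against stroma 2 11 of 51 (8.13%), against sphincter 1 6 of 40 (6.71%) and against sphincter 2 2 of 39 (2.14%). Bmp2k and Ltbp1 rose more in dilator muscle than in all 5 other types, with differences of 2.12 to 2.36 and of 1.30 to 2.53 on the log2 scale, though the call for Bmp2k against sphincter 2 was lost without untreated 2 and that for Ltbp1 against stroma 2 without untreated 3. Grem1 rose more than in iris PE and sphincter 1. Against sphincter 2 only Bmp2k and Ltbp1 were called, so a difference for Grem1 was not shown there. Without the filter on low counts Grem1 was called higher in dilated than untreated sphincter 2 (log2 fold change 1.99, SE 0.55, adjusted p = 0.0321). With the filter it was not called. The effect on Bmp4 was lower in dilator muscle than in sphincter 1 by 2.00 on the log2 scale (SE 0.25, adjusted p = 1.05e-09), where Bmp4 was at 41.4, 94.0 and 69.3 normalized CPM in untreated and 142 and 159 in dilated nuclei, a difference not called within sphincter 1 (log2 fold change 1.03, SE 0.29, adjusted p = 0.0745). Within sphincter 1 Bmp4 was called without the filter on low counts (1.02) and with the library number runs as a block (1.08). The same held without nuclei called doublets (1.25) and without constricted 2 (1.04). The 6 iris PE markers, all detected, summed to 1806 to 2610 CPM in untreated, 1126 to 2416 CPM in constricted and 3254 to 3589 CPM in dilated sphincter 1 nuclei. In untreated sphincter 1 Pax6 was at a mean of 1258 CPM, Dct 586, Otx1 178, Tyrp1 136, Pmel 103 and Zic1 62.9. In untreated iris PE they were at 1691, 7060, 147, 1233, 563 and 764 CPM, in that order. The part of iris PE RNA in the Bmp4 difference was not tested.

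**Figure D5:**
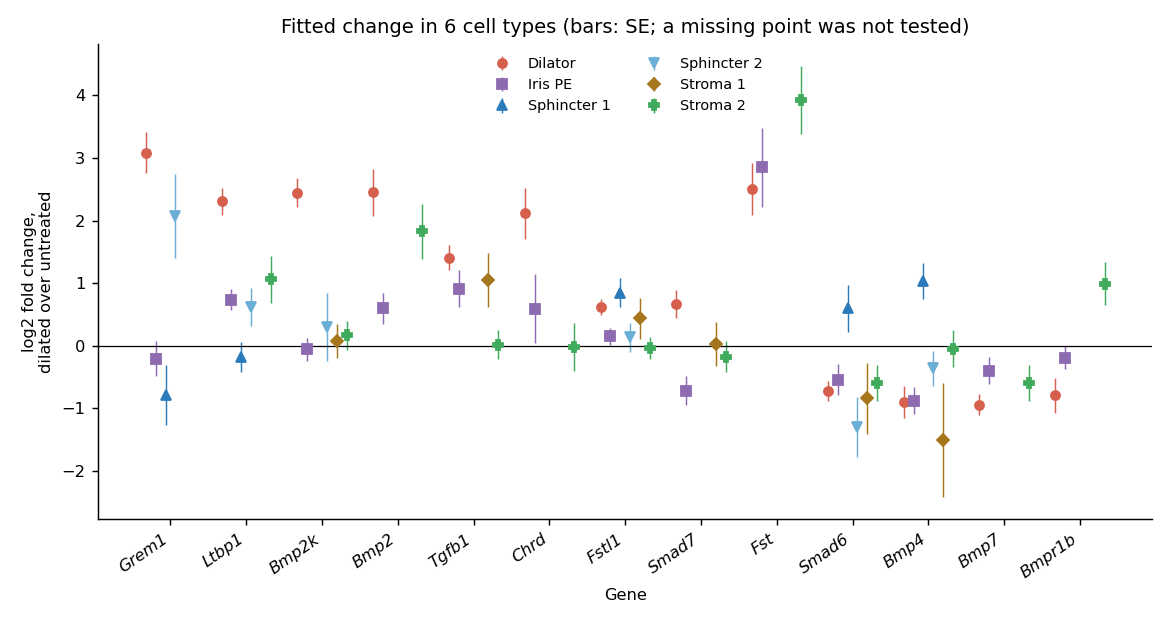
Dilation effect on 13 family genes in dilator muscle, iris PE, sphincter 1, sphincter 2, stroma 1 and stroma 2. Points are log2 fold changes of dilated over untreated irises, bars the SE, and a missing point was not tested in that cell type; Grem1, Ltbp1, Bmp2k and Chrd are highest in dilator muscle among the types tested, and Fst is highest in stroma 2.

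Other genes of the pathway were followed in lists that leave out the 56, to be read against the 13.3% of all genes called in dilator muscle (7.2% higher, 6.14% lower) and the 1.73% called in stroma 2. These lists were chosen with earlier results of these data known. In dilator muscle, 7 of 17 tested target genes of TGF-beta were called for dilated against untreated irises, all 7 higher, with a list median log2 fold change of 0.55 beside 0.02 for all genes. Among them were Cdkn1a (4.33, SE 0.69), Junb (3.98, SE 0.55), Cyr61 (3.45, SE 0.67), Timp1 (2.65, SE 0.50), Ctgf (2.04, SE 0.64) and Bhlhe40 (1.09, SE 0.22). Several of these are also immediate-early or stress-induced genes. Within the library number run of dilated 1, the log2 ratio to untreated irises was 0.19 for Ctgf, 0.84 for Cyr61 and 1.95 for Junb. Within that of dilated 2 it was 3.32, 4.70 and 4.88, in that order. Timp1 had 2.76 and 3.02 in these runs, and Bhlhe40 0.78 and 1.38. Cyr61 was at 174 ± 163 and Junb at 337 ± 325 normalized CPM (mean ± SD) in the 2 dilated libraries. The Ctgf call lay near the threshold (edgeR adjusted p = 0.0494). Of the 5 BMP targets tested, Id1 (2.98, SE 0.32) and Id3 (1.16, SE 0.21), which encode inhibitors of bHLH factors, were higher, with a list median of 0.42. Of 20 extracellular modulators 6 were called: Thbs1, an activator of latent TGF-beta (5.80, SE 0.54), Itgb8 (1.47, SE 0.28) and Crim1 (1.15, SE 0.18) were higher, and Sostdc1 (-2.03, SE 0.55), Dcn (-0.80, SE 0.18) and Fstl4 (-0.66, SE 0.15) lower. Dcn is also in the stroma 2 marker list, at a mean of 1926 CPM in untreated stroma 2 and 53.0 CPM in untreated dilator nuclei. In dilator nuclei that list summed to 80.4 to 101 CPM in untreated, 52.7 to 92.3 in constricted and 42.5 to 71.8 in dilated libraries. The part of free RNA in the Dcn call was not tested. Of 24 intracellular regulators Cited1 (2.60, SE 0.40), Tgif1 (1.48, SE 0.33), Nedd4l (0.89, SE 0.13) and Fkbp1a (0.82, SE 0.18) were higher, and of 4 co-receptors Rgma (-1.0, SE 0.22) was lower. In stroma 2, 3 of 18 extracellular modulators were higher, namely Thbs1 (4.55, SE 0.33), Fbn2 (1.09, SE 0.20) and Crim1 (1.02, SE 0.19), 1 of 24 intracellular regulators, Zeb2, was lower (-1.09, SE 0.19), and 2 of 17 TGF-beta targets were called, among them Postn, lower (-1.02, SE 0.21). Against constricted irises, 8 of 17 TGF-beta targets were called in dilator muscle (10.5% of all genes), 7 higher and Loxl2 lower (-0.71, SE 0.17). Of 20 extracellular modulators only Thbs1 and Crim1 were called there, with 2 BMP targets, 4 intracellular regulators and 1 co-receptor. In stroma 2 (0.532% of all genes) Thbs1 was the only modulator called, and no intracellular regulator was. The targets called there, all higher, included Id1, Id3 and Junb. Against untreated irises 0 of 6 BMP targets tested in stroma 2 were called, with a list median log2 fold change of -0.03. For constricted against untreated irises that list had a median of -1.08 in stroma 2, with 0 of 6 called. No gene of these lists was called for constricted against untreated irises, and 2 other ligands in the files (neither tested) gave no value.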

How the data were processed

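The authors sequenced nuclei of pooled mouse irises on the 10x platform, aligned reads with Cell Ranger 3.1.0 to an mm10 pre-mRNA index, so that intronic reads counted, removed low-quality nuclei and assigned cell types with Seurat. The deposited values are raw UMI counts per gene and nucleus, with the authors' cell type for each nucleus. In 92.1% of nuclei the counts summed exactly to the total listed with them. Here the UMIs of each cell type were added up within a library and tested with edgeR 4.0.16 in R 4.3.3 (TMM scaling, filterByExpr, quasi-likelihood F-test, all 8 libraries in each fit, Benjamini-Hochberg adjustment over all genes of a cell type). A call needed an adjusted p under 0.05 and a log2 fold change beyond 0.6 in either direction. Differences between cell types used a fit with library as a term and the adjusted p alone. DESeq2 1.42.0 served as an alternative. The test scripts were tested on simulated data.

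The family genes and all pathway and marker lists were chosen with earlier results of these data known. Genes named in full are those called in any comparison, those at least 2-fold above the next cell type with at least 50 UMIs, and the 2 of each role with the most UMIs. Bmp6 and Tgfb3 were added after their values were seen. Shares of nuclei with a UMI carry exact binomial intervals that cover counting error only, and were also computed after thinning to 1000 UMIs per nucleus. Doublets were marked with Scrublet in scanpy 1.11.5 (359 nuclei, 1.04%) and removed only as an alternative. Their share differed between cell types. In untreated 2, 21 of 184 sphincter 1, 12 of 106 leukocyte and 6 of 65 endothelial nuclei were marked, and 8 of 2080 dilator nuclei. Promoters came from RefSeq (GRCm38.p6) and gene positions from GENCODE vM21, in which 22498 of 22873 genes were matched by name. Libraries are pools of animals, and p-values measure the spread between these libraries, with 2 in the dilated group. Alternatives were other scalings, no filter, blocks for replicate and library number, a larger or smaller set of nuclei, and leaving out each library. The scaling by library totals and the removal of nuclei with shared barcodes were chosen after seeing the data. Some named genes are not reported here.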

Additional observations from a re-analysis of the deposited data

Results flagged for a closer look

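In 30 tests, covering 14 family genes, the dilation effect in dilator muscle differed from that in another cell type at an adjusted p under 0.05 in an edgeR fit with library as a term. Values are the log2 fold change in dilator muscle minus that in the other type, and SE and p follow in brackets for those with the smallest p. All differences share the 2 dilated libraries.

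Against iris PE, Grem1 (3.07, SE 0.30, adjusted p = 1.51e-07), Bmp2k (2.36, SE 0.18, adjusted p = 1.95e-09), Bmp2 (1.82, SE 0.28), Ltbp1 (1.63, SE 0.18), Smad7 (1.44, SE 0.21) and Fstl1 (0.44, SE 0.11) had a higher effect in dilator muscle, and Bmpr1b (-0.61, SE 0.18) and Bmp7 (-0.55, SE 0.17) a lower one. Fstl1 was not called without dilated 1 or with library totals as the scale, Bmp7 not without dilated 1 or any 1 untreated library, and Bmpr1b not without either dilated library, untreated 2 or untreated 3. Against sphincter 1, Grem1 (3.87, SE 0.54), Ltbp1 (2.53, SE 0.20, adjusted p = 2.35e-19) and Bmp2k (2.20, SE 0.45) were higher and Bmp4 (-2.0, SE 0.25), Chrdl1 (-2.33, SE 0.73) and Smad6 (-1.27, SE 0.34) lower, with Smad6 at -0.56 and not called without dilated 1. Chrdl1 was not called without dilated 1, dilated 2, untreated 2 or untreated 3, nor without nuclei called doublets. The sphincter 1 side of the Chrdl1 value rests on 13 untreated and 14 dilated UMIs. Against sphincter 2, Bmp2k (2.15, SE 0.42) and Ltbp1 (1.71, SE 0.27) were higher, and Bmp2k was not called without untreated 2.

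Against stroma 1, Bmp2k (2.36, SE 0.28) and Ltbp1 (2.21, SE 0.42) were higher. The value for Grem1 there (8.96, SE 2.16, adjusted p = 0.0064) rests on 9 UMIs in untreated and 0 in dilated stroma 1, depends on the prior count of the fit and is no bound, and it was not called without dilated 2 or untreated 3. Against stroma 2, Grem1 (2.53, SE 0.69), Bmp2k (2.12, SE 0.24), Chrd (2.07, SE 0.46), Tgfb1 (1.44, SE 0.23), Ltbp1 (1.30, SE 0.29), Smad7 (0.95, SE 0.24) and Fstl1 (0.65, SE 0.16) were higher and Chrdl1 (-2.02, SE 0.55), Bmpr1b (-1.85, SE 0.30), Fst (-1.54, SE 0.41) and Bmp4 (-0.87, SE 0.21) lower. Without dilated 1 the differences for Bmpr1b and Chrdl1 were -1.15 and -1.05 and were not called. Without untreated 3 the calls for Chrdl1, Fst, Grem1, Fstl1, Smad7, Bmp4 and Ltbp1 were lost. Without untreated 2 those for Chrd, Chrdl1, Fst, Grem1, Fstl1 and Smad7 were lost, without dilated 2 those for Bmp4, Grem1 and Fstl1, without dilated 1 also those for Fst and Smad7, and without untreated 1 that for Fst. Bmp2k and Tgfb1 kept their calls under all 13 settings. The dilator side of the Fst value rests on 27 untreated and 136 dilated UMIs. For Chrdl1 the stroma 2 side rests on 16 untreated and 28 dilated UMIs, with 25 of the dilated ones in 1 library. For Grem1 it rests on 13 untreated and 13 dilated UMIs.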

How the results depend on the processing

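Of the 26 calls in the 3 comparisons, 15 held under every setting tried, as did 14 of the 30 differences between cell types. No value changed direction. Without a filter on low counts the calls were 27 for dilated against untreated, 2 for constricted against untreated (Bmp6 and Bmpr1b in endothelial cells) and 20 for dilated against constricted irises, beside 12, 0 and 14. With the library number runs as a block they were 28 and 17 for the comparisons with dilated irises. Gained against untreated irises were, among others, Chrdl1, Bmpr1b, Fstl3, Tgfb3 and Smad7 in dilator muscle, Fstl3, Bmp4, Fst and Ltbp1 in iris PE, Bmp4, Fstl1 and Smad4 in sphincter 1, Smad4 in sphincter 2, and Bmp2 and Bambi in stroma 2. Leaving out 1 library gave 10 to 16, 0 to 1 (Bmp6, without dilated 2) and 10 to 14 calls, 19 to 30 differences between cell types (19 without untreated 3), and 23 to 26 genes at least 2-fold above the next cell type, beside 27. Replicate numbers did not pair the libraries. Same-numbered libraries correlated at 0.135 to 0.446 within a library number run and at -0.0331 to -0.00607 across runs, and the replicate block gave 17, 0 and 15 calls. Libraries of the same run with other numbers and other conditions correlated at 0.145 to 0.453. The main fits of the 3 comparisons held condition only, with no term for the run. DESeq2's Wald test gave 14, 0 and 12 calls. Library totals gave 13, 0 and 14, adding Bmpr1b and Tgfbr3 and losing Fstl1 and Smad7, and the cause was not tested. For the numbers of calls under these other settings, the share of all tests called is not given here. They are therefore not read as particular to the family. Genes with few UMIs, such as Nog and Gdf6, could not be tested at this depth.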
